A study of Mus musculus with 12 samples.

Results

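The cell cycle machinery of the newborn mouse kidney was followed here through 44 genes out of the 24062 symbols counted in each library. The members were taken by name as cyclins, cyclin-dependent kinases, replication factors, mitosis genes and cell cycle inhibitors, and they fall into 7 role groups. The rule uses no measured value, but the members were chosen with earlier results of these data known. Whole kidneys were collected on postnatal day 3 and sequenced one by one, with 3 kidneys in each of 4 groups. The LIN28B OE group carried a human LIN28B transgene that doxycycline switches on in cells descended from Wt1-Cre expressing progenitors, induced by a short pulse late in gestation, and it is labelled C57BL/6. Its controls were littermates labelled wild type and C57BL/6. The let-7 KO group carried a constitutive deletion of let-7a1, let-7d and let-7f1, a cluster on chromosome 13, on a mixed CD1 and C57BL/6 background, and it was compared with WT littermates of the same mixed background. Wt1-Cre acts in the mesenchyme of the kidney, its stroma and the nephron lineage, so that the transgene is not driven in every cell, while the let-7 deletion is present in all cells.

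Proliferating cells license replication origins in G1 by loading the MCM helicase, copy the genome in S phase, and enter mitosis when cyclin B activates Cdk1. Cyclin D with Cdk4 or Cdk6 releases E2F factors from the retinoblastoma protein and so opens the way to S phase, and the Cdkn proteins oppose these kinases. The nephron progenitors of the cap mesenchyme divide until nephrogenesis ends shortly after birth in mice. let-7 miRNAs repress growth-promoting transcripts by pairing with their 3′ UTRs, and several cyclins and Cdks are among their known targets.

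Total counts ran from 39926235 to 61872736 per kidney, and 3 counts, taken as the floor, corresponded to 0.0485 to 0.0751 CPM (counts relative to library size, the sizes scaled by TMM). Hmga2, a let-7 target used as a check of the labels, was at 158 to 207 CPM in LIN28B OE against 12.4 to 16.5 CPM in controls, and at 12.3 to 31.3 CPM in let-7 KO against 7.71 to 10.4 CPM in WT. The human transgene itself is not among the mouse symbols. Replicates 1 and 2 of each group came from litter 1 and replicate 3 from litter 2. LIN28B OE replicate 3 stood apart from its group, being the highest of the 3 kidneys for 28 of the 43 members tested, where every other kidney was the highest of its group for 6 to 22. The slope of log2 CPM on log2 transcript length also differed between kidneys, from -0.06 in LIN28B OE replicates 1 and 2 to 0.11 in replicate 3, from -0.01 to 0.13 in C57BL/6 controls, from -0.06 to 0.12 in WT and from -0.17 to 0.02 in let-7 KO. Results that moved with these kidneys are given with and without them. A whole kidney mixes many cell types, so that fewer cells of a type and less RNA per cell cannot be told apart.

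Of the 44 members, 43 passed the filter on low counts in every comparison. Cdkn2a, which encodes the inhibitor p16 and the p53 activator ARF, lay between 0 and 0.17 CPM over the 12 kidneys and was not tested. Levels between genes were compared as mean CPM per kilobase of transcript in the C57BL/6 controls. Cdk4 was the most abundant member on this scale at 263 CPM per kb, followed by Pcna at 130 and Birc5 at 129, which did not differ beyond their spread over the 3 kidneys, and Cdc20 at 86.9. The lowest of the tested members were Cdk6 at 0.89, Cdkn1b at 2.39 and E2f2 at 2.96 CPM per kb. Among the kinases that bind cyclin D, Cdk4 was thus far above Cdk6. The spread between replicates was smallest in the C57BL/6 controls, with a median coefficient of variation over the 43 members of 10.6%, and was 15.5% in LIN28B OE, 19.6% in WT and 21.5% in let-7 KO.

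**Figure D1:**
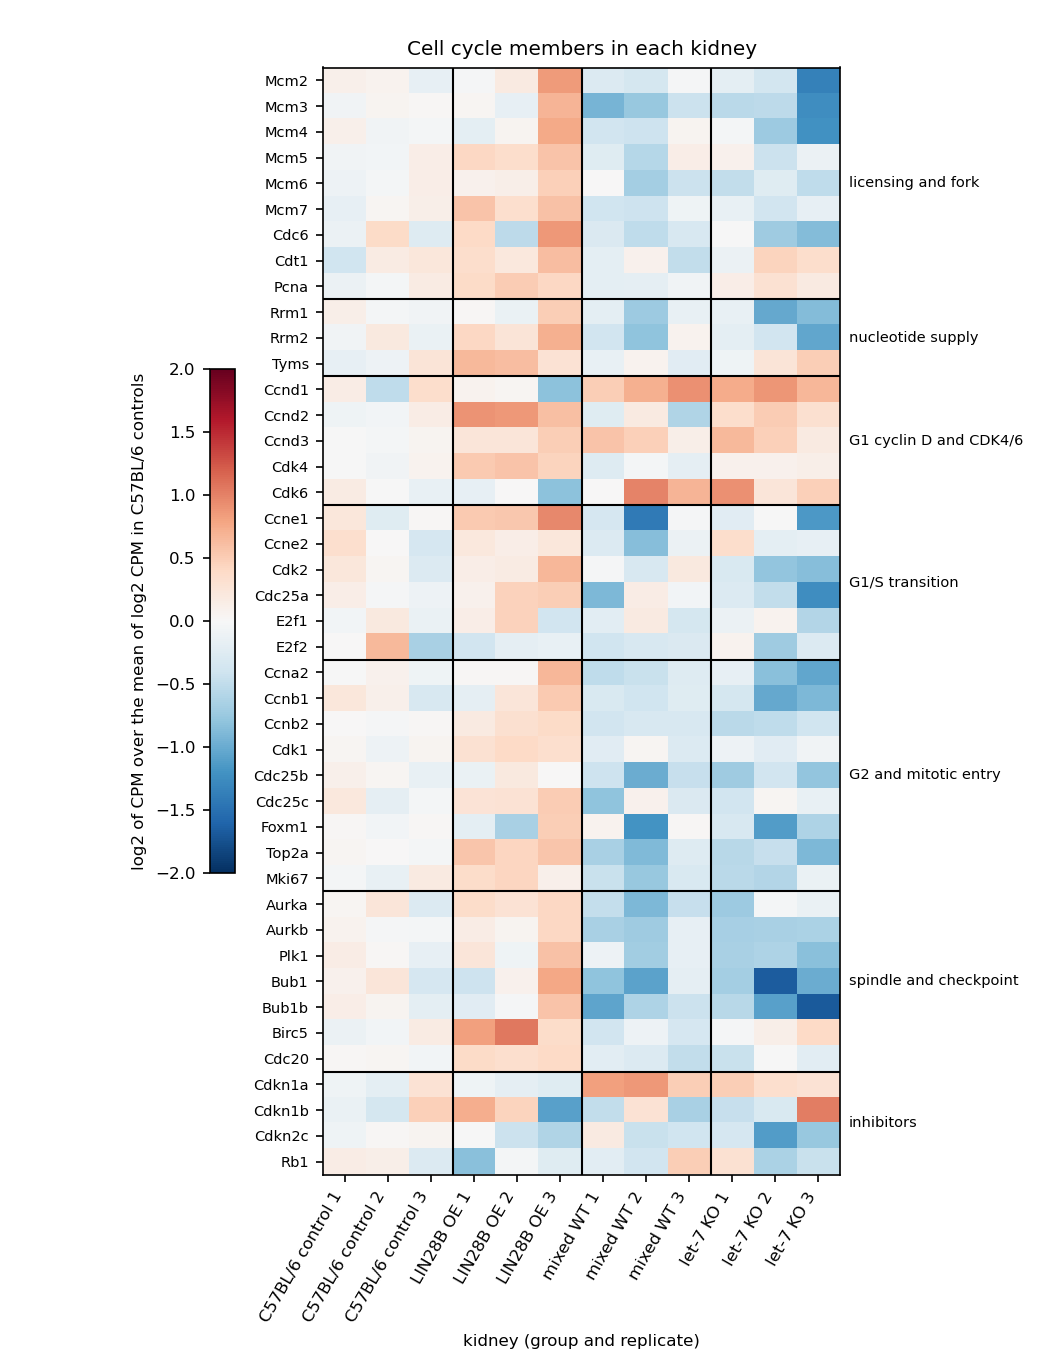
Heat map of the 43 tested members (rows, by role) in the 12 kidneys (columns), coloured by log2 CPM relative to the mean log2 CPM of the 3 C57BL/6 controls. The LIN28B OE columns are mostly red, most strongly in replicate 3, and both mixed-background groups are mostly blue outside the cyclin D group and Cdkn1a.

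The comparison of LIN28B OE with its controls addressed how the levels of replication and division genes stood after LIN28B had been switched on in the kidney progenitors. A gene was called at an unadjusted p below 0.01 in edgeR's quasi-likelihood test, the threshold used in the study, and the Benjamini-Hochberg adjusted p over all genes is given beside it. Of the 43 members 9 rose and 0 fell, namely Mcm5, Mcm7, Pcna, Tyms, Ccnd2, Cdk4, Ccne1, Top2a and Birc5. Over all 15793 genes tested, 3.25% were called higher and 4.08% lower. The 9 genes lie apart from each other in the genome (GENCODE M21, GRCm38), Ccnd2 on chr6:127125162-127152193, Cdk4 on chr10:127063534-127067920, Ccne1 on chr7:38097984-38107534, Mcm5 on chr8:75109569-75128439, Pcna on chr2:132249162-132253314, Mcm7 and Tyms on chr5:138164583-138172422 and chr5:30058202-30073617, and Top2a and Birc5 on chr11:98992943-99024189 and chr11:117849251-117855743. In this fit Ccnd2 alone also passed an adjusted p of 0.05, which 1.23% of all genes did. DESeq2 called 12 members, and 11 of the 43 passed its adjusted threshold. In edgeR 11 did so in litter 1 alone and 8 without LIN28B OE replicate 3. The share of all genes past the adjusted threshold was not counted in these fits, so the 1.23% is no background for them. Calls over all genes at an unadjusted p below 0.01 rose too, from 1158 of 15793 to 1726 with DESeq2. They were 2795 of 15919 in litter 1 alone and 2509 of 16258 without LIN28B OE replicate 3. The log2 fold change was positive for 36 members, with a median of 0.30 beside -0.02 over all genes, and the median was 0.15 with 31 positive without LIN28B OE replicate 3. For 16 members every LIN28B OE kidney was above every control, which held for 10.3% of all genes, and for 0 members every one was below, which held for 13.6%. At an unadjusted p below 0.05 the edgeR test gave 14 members, all higher, but the share of all genes at that threshold was not counted.

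Apart from Ccnd2, none of these calls held in every fit that left out 1 kidney, and most of these fits also called fewer genes over all genes. Ccnd2 was called with each of the 6 kidneys left out in turn, Cdk4 and Top2a with each but control replicate 2, and Birc5 with each but control replicates 1 and 2. Mcm5 and Mcm7 were lost without control replicate 1 or 2 or LIN28B OE replicate 1, and Pcna and Tyms were called only without control replicate 3 or LIN28B OE replicate 3. With litter as a block the count was 6 and no member passed an adjusted p of 0.05, the adjusted p of Ccnd2 becoming 0.064, while Pcna, Tyms and Ccne1 had unadjusted p = 0.010, 0.016 and 0.013 in edgeR. Leaving out C57BL/6 control replicate 1, 2 or 3 gave 3, 1 and 8 called members, and leaving out LIN28B OE replicate 1, 2 or 3 gave 4, 7 and 10. Each of these member calls was higher in LIN28B OE. Over all genes the calls went from 1158 to 530, 515 and 892 without control replicate 1, 2 or 3. They went to 833, 781 and 2509 without LIN28B OE replicate 1, 2 or 3. In litter 1 alone, 2 kidneys against 2, 11 members were called and the median was 0.22 with 31 positive, and in the only pair of litter 2 the log2 ratio was positive for 36 of 43 members with a median of 0.46. With each kidney's length slope as a covariate 18 members were called, among them the 9 above, and 12 passed the adjusted threshold. Over all genes that fit called 1540 of 15793, and the share past the adjusted threshold was not counted. The transcripts of the 9 had a median length of 2962 bases, beside 2986 for the other 34 members and 2890 for all genes tested with a known length.

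Comparing let-7 KO with WT, 0 of the 43 members were called in edgeR, while 1.1% of all 15500 genes tested were called higher and 1.63% lower. At an unadjusted p below 0.05 the same test gave Ccnd2, Birc5 and Pcna higher and Cdk2 lower. The share of all genes at that threshold was not counted, so these 4 are not read as a result about the members. DESeq2 called 1 member at p below 0.01, Ccnd2, and 844 of 15500 genes over all genes. No member passed an adjusted p of 0.05, and 0.0194% of all genes did. The median log2 fold change was -0.05 beside -0.02 over all genes, with 19 members positive and 24 negative. For 4 members, Pcna, Ccnd2, Cdk4 and Birc5, the KO kidneys were all above the WT kidneys, beside 7.81% of all genes, and for 1, Ccnb2, they were all below, beside 8.98%. The median was 0.10 with the length slope as a covariate and 0.04 in litter 1 alone, so its sign depended on the fit. Without let-7 KO replicate 1, Ccnb1 and Cdk2 were called lower, and without WT replicate 2 Ccnd2 was called higher. In the pair of litter 2 the median log2 ratio was -0.24.

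**Figure D2:**
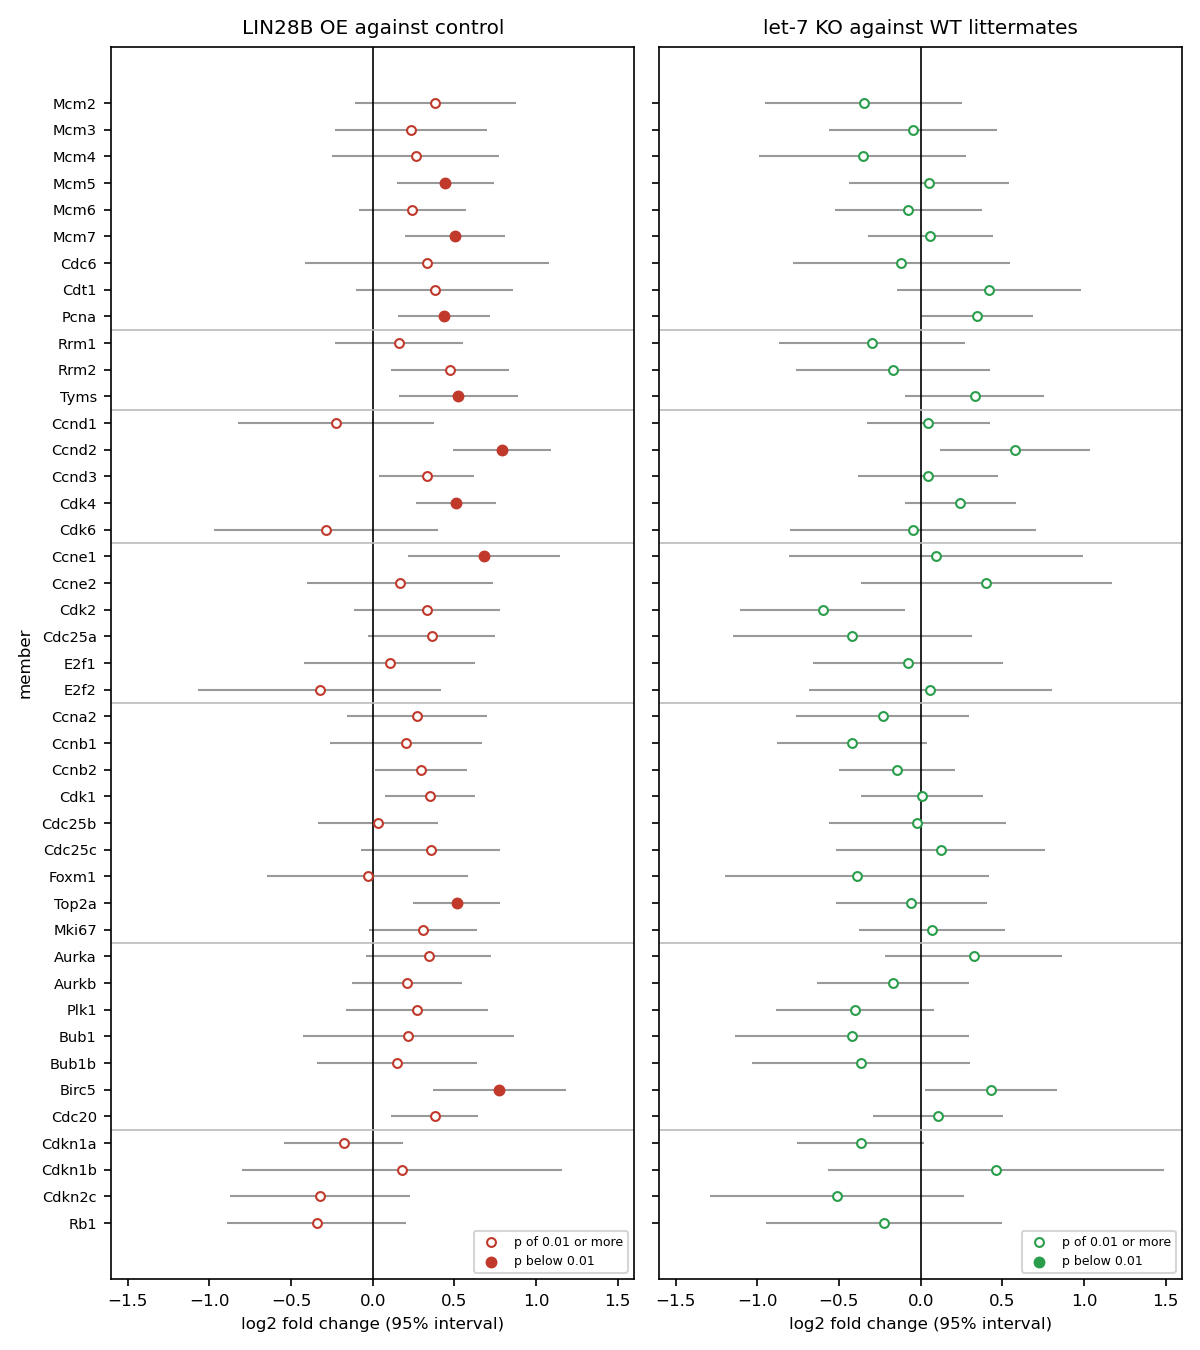
Log2 fold change (points) with its 95% interval (bars) of the 43 tested members, ordered by role, in LIN28B OE against control (left) and let-7 KO against WT (right), with filled points for an unadjusted p below 0.01. The 9 filled points are all on the left and above 0, and the right-hand points scatter around 0.

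In the group that licenses origins and builds the replication fork, 3 of 9 members rose in LIN28B OE, and the median log2 fold change was 0.38. Mcm7, a subunit of the replicative helicase, was at 149, 171 and 181 CPM in the 3 controls and at 248, 210 and 250 CPM in LIN28B OE. All 3 LIN28B OE kidneys were above all 3 controls, a 1.42-fold difference (log2 fold change 0.50 ± 0.14 SE, unadjusted p = 0.0047, adjusted p = 0.10, edgeR). Mcm5, another helicase subunit, was at 121, 124 and 140 CPM in controls and at 170, 163 and 190 CPM in LIN28B OE, again without overlap (0.45 ± 0.13, unadjusted p = 0.0079, adjusted p = 0.13, edgeR). Pcna, the sliding clamp that holds polymerases on DNA, was at 181, 190 and 219 CPM in controls and at 255, 279 and 262 CPM in LIN28B OE (0.44 ± 0.13, unadjusted p = 0.0067, adjusted p = 0.12, edgeR). The groups did not overlap. Mcm2 was at 140, 137 and 117 CPM in controls and at 129, 149 and 236 CPM in LIN28B OE (0.38, unadjusted p = 0.11), so that its difference lay mainly in replicate 3 and was 0.08 without that kidney. Mcm3 had the lowest value of the group, 0.23 with unadjusted p = 0.29.

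In let-7 KO this group had 4 members above 0 and 5 below. Pcna was at 172, 173 and 187 CPM in WT and at 215, 241 and 221 CPM in KO, without overlap, at log2 0.34 ± 0.16 SE (unadjusted p = 0.050, adjusted p = 0.46, edgeR). The highest value was that of Cdt1, which brings the helicase to origins, at 0.42 with unadjusted p = 0.13, and the lowest that of Mcm4 at -0.36 with unadjusted p = 0.24. Mcm2 was at 108, 103 and 129 CPM in WT and at 115, 101 and 51.4 CPM in KO, so that only KO replicate 3 was below the WT range by a wide margin. Its log2 fold change was -0.35 (unadjusted p = 0.23) and 0.03 in litter 1 alone.

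The promoters of this group are shown because the E2F motif, the sequence through which E2F factors drive S phase genes, was frequent among them. In windows from 250 bases before to 50 bases after the start in RefSeq (GRCm38.p6), available for 35 members, the letters TTTGGCGC, TTTCCCGC, TTTCGCGC, TTTGCCGC or the shorter TTGGCGC, which can overlap the first, were found on either strand in 13 members, or 37.1%, beside 5.21% of 20291 promoters. They were in 6 of the 8 licensing and fork genes with a window, namely Cdc6, Cdt1, Mcm3, Mcm5, Mcm6 and Mcm7. In the last 100 bases before the start, 4 members had them. The windows below give a match in capitals, on the strand of the gene. The Mcm5 window lies on chr8:75109345-75109374 (plus strand), with the motif beginning 153 bases before the start, and the Mcm7 window on chr5:138171849-138171878 (minus strand), with the motif 17 bases after the start.
Mcm5: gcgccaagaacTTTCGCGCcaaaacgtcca
Mcm7: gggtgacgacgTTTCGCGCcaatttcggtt

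Of the nucleotide supply genes, Tyms, which makes thymidylate, rose in LIN28B OE. It was at 123, 128 and 165 CPM in controls and at 217, 212 and 169 CPM in LIN28B OE, where replicate 3 was just above the highest control (0.52 ± 0.16, unadjusted p = 0.0095, adjusted p = 0.13, edgeR). Rrm2, the small subunit of ribonucleotide reductase, was at 149 to 188 CPM in controls and 196 to 267 CPM in LIN28B OE, at 0.47 with unadjusted p = 0.015. Rrm1, the large subunit, was at 0.16 with unadjusted p = 0.38. In let-7 KO, Tyms was at 0.33 (unadjusted p = 0.11), Rrm2 at -0.17 (unadjusted p = 0.54) and Rrm1 at -0.30 (unadjusted p = 0.27), and the ranges of KO and WT overlapped for all 3 genes.

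The cyclin D group held the member that passed the adjusted threshold in edgeR with all 6 kidneys. Ccnd2, the cyclin D2 gene, was at 285, 290 and 335 CPM in controls and at 562, 551 and 457 CPM in LIN28B OE. Every LIN28B OE kidney was well above the controls, a 1.73-fold difference (log2 fold change 0.79 ± 0.13 SE, unadjusted p = 0.00017, adjusted p = 0.026, edgeR). It was called with each of the 6 kidneys left out, but its adjusted p was then between 0.0020, without LIN28B OE replicate 3, and 0.22, without control replicate 2. In let-7 KO it was at 255, 341 and 199 CPM in WT and at 385, 429 and 378 CPM in KO. The groups did not overlap there either, and the difference was 0.58 ± 0.21 with unadjusted p = 0.019 and adjusted p = 0.38 in edgeR, short of the threshold, and 0.34 (unadjusted p = 0.096) with the length slope as a covariate.

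Cdk4, the kinase partner of cyclin D, rose in LIN28B OE from 536, 515 and 566 CPM to 770, 795 and 732 CPM (0.51 ± 0.11, unadjusted p = 0.00098, adjusted p = 0.059, edgeR). All 3 kidneys were above the controls. In let-7 KO it was at 569, 570 and 586 CPM against 448, 526 and 477 CPM in WT, without overlap, at 0.24 with unadjusted p = 0.14. Ccnd3 was at 0.33 (unadjusted p = 0.030) in LIN28B OE and 0.05 (unadjusted p = 0.82) in let-7 KO. Ccnd1, cyclin D1, did not follow Ccnd2. It was at 251, 159 and 286 CPM in controls and 235, 232 and 127 CPM in LIN28B OE (-0.22, unadjusted p = 0.42), and 315, 369 and 422 CPM in WT against 375, 416 and 357 CPM in KO (0.05, unadjusted p = 0.79). Cdk6 was the lowest of the group in both models, at 9.26 to 11.4 CPM in controls against 5.81 to 10.3 CPM in LIN28B OE (-0.29, unadjusted p = 0.37) and at 10.3 to 20.4 CPM in WT against 12.1 to 19.4 CPM in KO (-0.05, unadjusted p = 0.89).

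**Figure D3:**
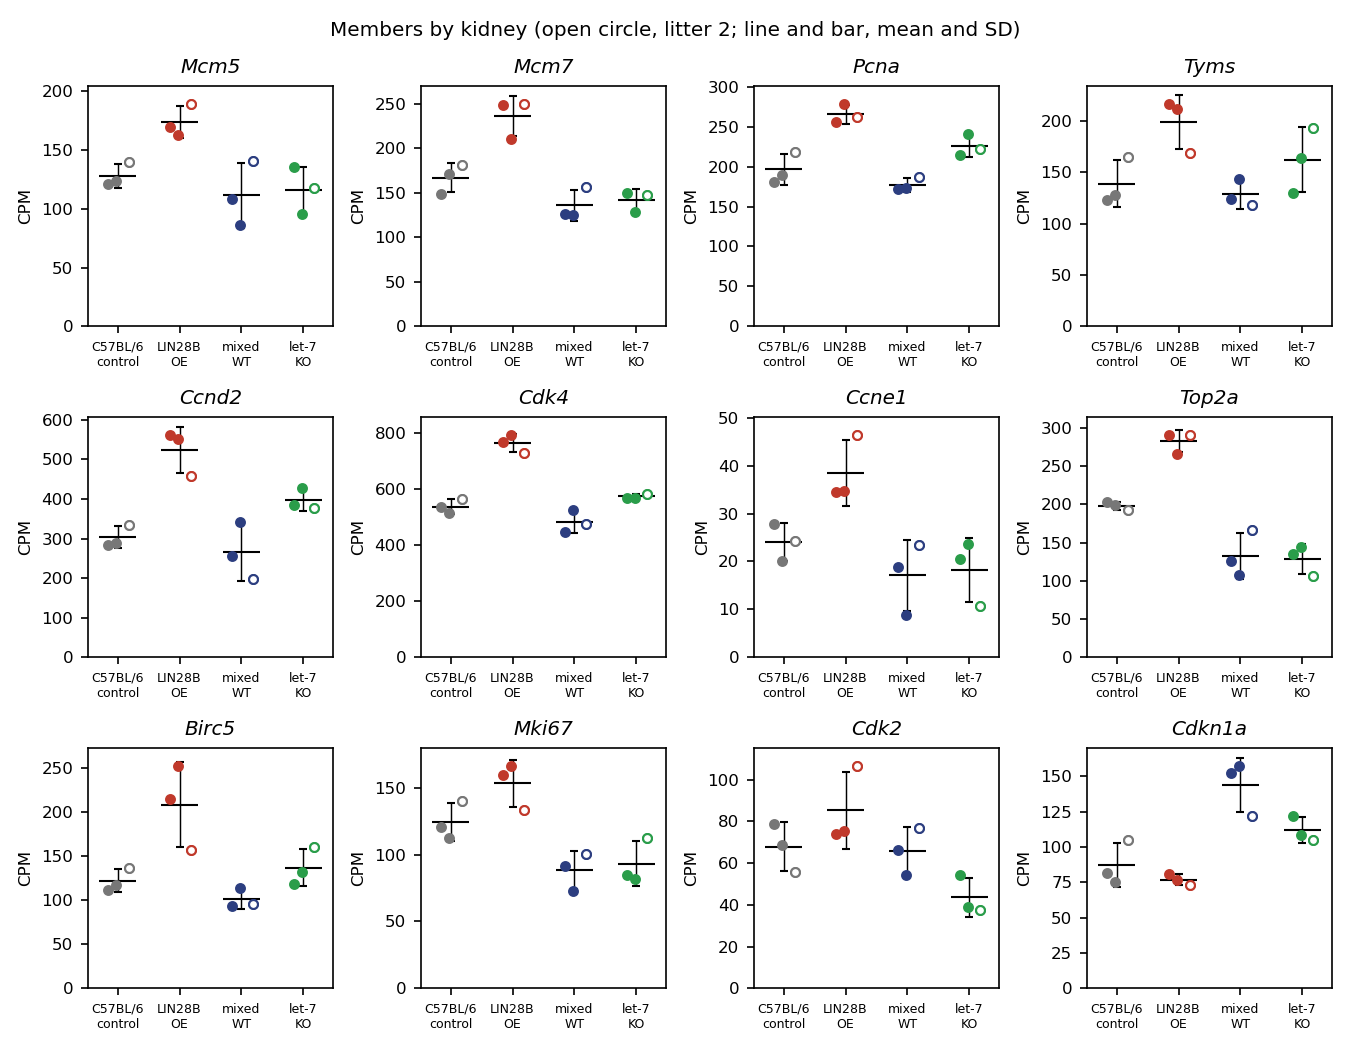
CPM of 12 members in each kidney (points, with litter 2 as open circles) with the mean and SD of each group of 3. The 9 members called in LIN28B OE come first, and there every red point lies above every grey point, while Mki67, Cdk2 and Cdkn1a overlap.

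The cyclin D genes and their kinases bear on let-7 through its seed, so the mature miRNAs of the deleted loci and the matches in these genes are printed here. The paper states that the KO suppressed only part of the let-7 family, whereas LIN28B OE suppressed all of it. The KO therefore does not remove every let-7 miRNA. The mature sequences (RefSeq, GRCm38.p6) share the seed in capitals, bases 2 to 8.
let-7a-5p: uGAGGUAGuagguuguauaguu
let-7d-5p: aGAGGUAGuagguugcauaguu
let-7f-5p: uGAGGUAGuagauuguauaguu
Taking for each gene its longest 3′ UTR in GENCODE M21 (GRCm38), a match of 7 bases to this seed (CTACCTC, or TACCTCA for bases 2 to 7 opposite an A) was found in 10 of the 44 members, or 22.7%, beside 15.4% of 19252 genes. The 10 were Rrm2, Ccnd1, Ccnd2, Cdk4, Cdk6, Cdc25a, E2f2, Cdk1, Birc5 and Rb1, and 4 of the 5 cyclin D group genes were thus among them. Only Rrm2 had the 8-base match CTACCTCA. The 3′ UTRs with a match were longer, with a median of 2806 bases against 605 without. A match is a description of the letters and not a measured site. The Birc5 matches begin at bases 506 and 2663 of the 2936-base 3′ UTR of a transcript that is not its principal one. Its principal transcript has 947 bases in all, and whether it holds either match was not examined. The windows below mark matches in capitals, 3 in Ccnd2, 1 in Cdk4 and the 8-base match of Rrm2, on the strand of the gene. They begin at base 2029, 2107 and 4743 of the Ccnd2 3′ UTR (chr6:127128289-127128317, chr6:127128211-127128239 and chr6:127125575-127125603, minus strand), at base 652 of that of Cdk4 (chr10:127067662-127067690, plus strand) and at base 130 of that of Rrm2 (chr12:24713351-24713380, plus strand).
Ccnd2 match 1: agagtattcttTACCTCAggtttactgga
Ccnd2 match 2: cgttttcctaaTACCTCAcagctataccg
Ccnd2 match 3: cttctgccatgTACCTCAgatctatcagt
Cdk4: gggcccgaggcCTACCTCccctcatccat
Rrm2: aagctgtgtagCTACCTCAgtcctgtttgc
Of the 10 members with a match, Ccnd2, Cdk4 and Birc5 rose in LIN28B OE and none was called in let-7 KO, while Ccnd1, Cdk6, E2f2 and Rb1 had values below 0 in LIN28B OE with an unadjusted p of 0.42, 0.37, 0.35 and 0.19. The other matched members, Rrm2, Cdk1 and Cdc25a, had values above 0 (0.47, 0.35 and 0.36, unadjusted p = 0.015, 0.018 and 0.064). Of the 34 members without a match 6 rose, namely Mcm5, Mcm7, Pcna, Tyms, Ccne1 and Top2a, and Cdkn2a among the 34 was not tested. Over all genes 3.25% were called higher in LIN28B OE.

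At the G1/S transition 1 of 6 members rose in LIN28B OE. Ccne1, cyclin E1, which activates Cdk2, was at 27.9, 20.1 and 24.2 CPM in controls and at 34.4, 34.6 and 46.4 CPM in LIN28B OE (0.68 ± 0.21, unadjusted p = 0.0089, adjusted p = 0.13, edgeR). The ranges did not overlap, but it was called with none of the 6 kidneys left out, at 0.52 to 0.80. Cdc25a, the phosphatase that activates Cdk2, was at 39.8 to 46.6 CPM in controls and 45.4 to 60.4 CPM in LIN28B OE (0.36, unadjusted p = 0.064), and at 23.0 to 47.4 CPM in WT against 18.1 to 35.3 CPM in KO (-0.42, unadjusted p = 0.23). E2f2 had the lowest value in LIN28B OE, -0.33 with unadjusted p = 0.35. In let-7 KO the highest was Ccne2 at 0.40 with unadjusted p = 0.27 and the lowest Cdk2, the S phase kinase. Cdk2 was at 66.4, 54.1 and 77.0 CPM in WT and at 54.4, 39.1 and 37.3 CPM in KO, so that 2 of the 3 KO kidneys were below all WT kidneys (-0.60 ± 0.23, unadjusted p = 0.024, adjusted p = 0.39, edgeR).

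Among the genes of G2 and mitotic entry, Top2a, the topoisomerase that untangles chromosomes, rose in LIN28B OE. It was at 203, 199 and 193 CPM in controls and at 290, 266 and 291 CPM in LIN28B OE, a clear gap between narrow ranges (0.51 ± 0.12, unadjusted p = 0.0016, adjusted p = 0.068, edgeR). Mki67, which encodes the proliferation marker Ki-67, was at 120, 112 and 140 CPM in controls and at 160, 166 and 133 CPM in LIN28B OE. The groups overlapped through LIN28B OE replicate 3, and the difference was 0.31 with unadjusted p = 0.066, and 0.52 with unadjusted p = 0.0011 in litter 1 alone. Cdk1, the mitotic kinase, was at 138 to 153 CPM in controls and 183 to 194 CPM in LIN28B OE, without overlap, at 0.35 with unadjusted p = 0.018. Ccnb1, its cyclin B1 partner, was at 128 to 188 CPM in controls and 141 to 231 CPM in LIN28B OE (0.21, unadjusted p = 0.34). The lowest value was that of Foxm1, a transcription factor of mitotic genes, at -0.03 with unadjusted p = 0.91.

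Of these G2 genes, 3 had a value above 0 in let-7 KO and 6 below. Mki67 was at 91.3, 72.9 and 101 CPM in WT and 84.7, 82.0 and 113 CPM in KO (0.07, unadjusted p = 0.73). Top2a was at 126, 107 and 166 CPM in WT and 135, 144 and 106 CPM in KO (-0.06, unadjusted p = 0.79). Neither gene separated the groups. Cdk1 was at 0.01 (unadjusted p = 0.96), Cdc25c was the highest at 0.12 (unadjusted p = 0.68) and Ccnb1 the lowest, with 130, 122 and 136 CPM in WT and 126, 78.9 and 86.2 CPM in KO (-0.42, unadjusted p = 0.069).

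Of the spindle and checkpoint genes, Birc5, which encodes survivin, a subunit of the chromosomal passenger complex, rose in LIN28B OE. It was at 112, 117 and 136 CPM in controls and at 215, 252 and 157 CPM in LIN28B OE, with replicate 3 nearest to the controls (0.78 ± 0.18, unadjusted p = 0.0018, adjusted p = 0.071, edgeR). The other 6 genes were all above 0, from 0.15 for Bub1b (unadjusted p = 0.51) to 0.38 for Cdc20 (unadjusted p = 0.0104). In let-7 KO, Birc5 was at 93.3, 113 and 95.8 CPM in WT and 119, 132 and 160 CPM in KO. The groups did not overlap, at 0.43 ± 0.18 with unadjusted p = 0.038 and adjusted p = 0.43 in edgeR, and the value was 0.21 (unadjusted p = 0.24) with the length slope as a covariate. The lowest was Bub1, a checkpoint kinase, at -0.42 with unadjusted p = 0.22.

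Mitotic promoters often carry the cell cycle homology region (CHR), and its letters are shown for Top2a and Birc5 as the members of these groups that rose. The letters TTTGAA or TTTAAA, the second the same on both strands, were found in 16 of the 35 members with a window, or 45.7%, beside 24.1% of single promoters. They were in 10 of the 12 G2, mitotic entry and spindle genes with a window. As for E2F, a member was counted if any of its windows matched. In the last 100 bases before the start 10 members had them. The CCAAT letters, on either strand, were in 26 members, or 74.3%, beside 38.1%. The Top2a window with the match nearest to the start (chr11:99024196-99024223, minus strand) has it 23 bases before the start, here as the reverse complement TTCAAA, and that of Birc5 (chr11:117849006-117849033, plus strand) has it 220 bases before the start.
Top2a: ctagataaaggTTCAAAtgaaactaggg
Birc5: agcggacatgcTTTAAAgaggtgcccca

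None of the 4 inhibitors tested was called in either model, and their median was -0.25 in LIN28B OE and -0.29 in let-7 KO. Cdkn1a, the p21 gene and a p53 target, was at 81.2, 75.5 and 105 CPM in controls and at 81.2, 76.5 and 73.1 CPM in LIN28B OE (-0.18, unadjusted p = 0.30), and at 152, 157 and 122 CPM in WT against 122, 109 and 105 CPM in KO (-0.37, unadjusted p = 0.062). Both pairs of groups overlapped. Cdkn1b, the p27 gene, had the widest spread of the members in both mutants, with 17.5, 14.4 and 5.01 CPM in LIN28B OE against 9.67, 8.33 and 14.7 CPM in controls (0.18, unadjusted p = 0.69) and 7.70, 8.59 and 21.5 CPM in KO against 7.54, 12.9 and 6.78 CPM in WT (0.46, unadjusted p = 0.34). Its replicate 3 was the lowest kidney in LIN28B OE and the highest in let-7 KO. The lowest values were those of Rb1, the retinoblastoma gene, in LIN28B OE (-0.34, unadjusted p = 0.19) and of Cdkn2c, the p18 gene, in let-7 KO (-0.51, unadjusted p = 0.17).

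**Figure D4:**
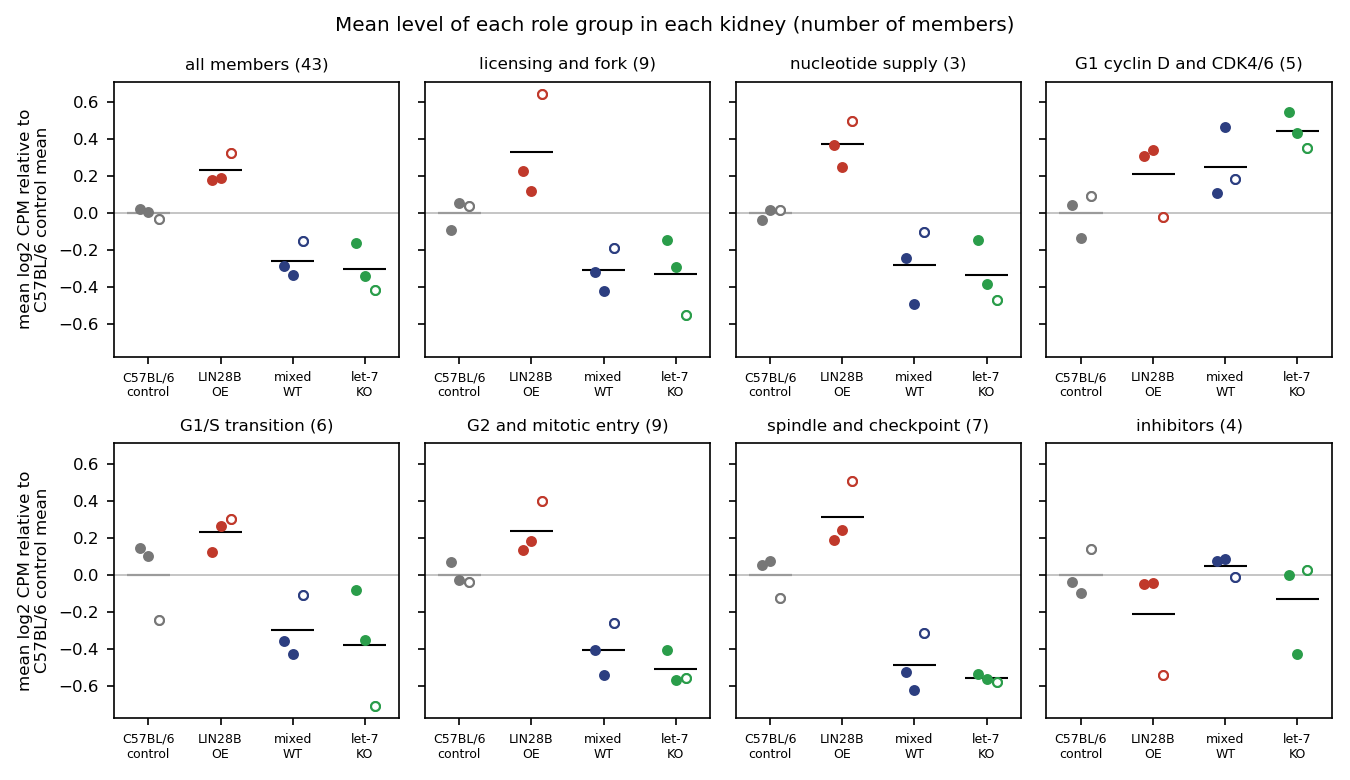
Mean log2 CPM of the members of each role group in each kidney (points, litter 2 open), relative to the mean of the C57BL/6 controls, with a line at the group mean. In the licensing, nucleotide, G2 and spindle panels the LIN28B OE points lie above the controls and all mixed-background points below them, whereas the cyclin D panel has let-7 KO highest.

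A further 98 genes of the same pathways, taken from textbook roles in 4 lists, were read beside the members. These lists too were chosen with earlier results of these data known. In LIN28B OE 16 of the 98 rose and 0 fell, and their median was 0.29. Over all genes 3.25% were called higher and 4.08% lower. Past the adjusted threshold were 2 of the 98, beside 1.23% of all genes. Of the 32 origin and fork genes 8 rose, the largest being Lig1, the ligase that joins Okazaki fragments (70, 76 and 83 CPM against 155, 133 and 117 CPM, 0.83, adjusted p = 0.037, edgeR) and Rfc4, a subunit of the clamp loader (0.79, adjusted p = 0.051, edgeR). Of the 34 mitosis genes 6 rose, led by Cks1b, a Cdk-binding subunit (149, 158 and 166 CPM against 243, 285 and 239 CPM, 0.70, adjusted p = 0.037, edgeR) and Cdca5, which protects cohesion (0.62, unadjusted p = 0.0040, adjusted p = 0.096, edgeR). Of 15 E2F, RB and DREAM genes 1 rose, E2f5 at 0.69, and of 17 other brakes and checkpoint genes 1 rose, Cdkn1c at 0.73. Each is a single gene and not a result about its list. The count of 16 was 3 without C57BL/6 control replicate 2, 8 without control replicate 1, 10 without control replicate 3 or LIN28B OE replicate 1 or 2, and 26 without LIN28B OE replicate 3. Calls over all genes moved in the same direction in each of these fits. Lig1, Rfc4 and Cks1b were called in all of them.

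In let-7 KO, 1 of the 98, Cdkn1c, rose and 0 fell, a share near the 1.1% of all genes called higher, and their median was -0.08. The count was 9 without let-7 KO replicate 1 and 0 without replicate 2, fits that called 1296 of 15961 and 162 of 16033 genes over all genes. Cdkn1c is the imprinted gene of the inhibitor p57. It was at 1597, 1758 and 994 CPM in WT and 2269, 2784 and 2501 CPM in KO, without overlap (0.79 ± 0.21, unadjusted p = 0.0040, adjusted p = 0.36, edgeR). The call was lost in litter 1 alone (0.58, unadjusted p = 0.011) and with the length slope (0.50, unadjusted p = 0.025). In LIN28B OE it was at 2340, 2157 and 1237 CPM against 1062, 1038 and 1355 CPM, so that replicate 3 lay within the control range (0.73 ± 0.22, unadjusted p = 0.0078, adjusted p = 0.12, edgeR). That call was lost with litter as a block (0.70, unadjusted p = 0.016) and without control replicate 1 or 2 or LIN28B OE replicate 1 or 2.

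The markers of several kidney cell types moved together with the members in LIN28B OE, and their part in the result was not tested. The summed level of 8 nephron progenitor markers was 459 to 563 CPM in LIN28B OE against 173 to 214 CPM in controls, and 7 of the 8 rose, the largest being Six2, with 12.8, 10.2 and 14.97 CPM in controls and 111, 108 and 168 CPM in LIN28B OE, while Tmem100 fell. The 8 proximal tubule markers summed to 1416 to 1751 CPM against 2803 to 3072 CPM, with 5 lower at p below 0.01, the loop and distal tubule markers to 394 to 527 CPM against 832 to 1257 CPM with 4 of 5 lower, and the endothelial markers to 219 to 236 CPM against 312 to 352 CPM with 3 of 5 lower. In let-7 KO the progenitor markers summed to 137 to 207 CPM against 79.4 to 110 CPM in WT, where 1 of 8 was called, and the proximal tubule markers to 3040 to 3780 CPM against 4100 to 4648 CPM, with 1 of 8 called lower. The progenitor sum was higher in both mutants. In let-7 KO 2 of its 8 markers had every kidney above WT, beside 7.81% of all genes. The member mean is given next for each kidney, and its relation to the progenitor sum was not tested. In LIN28B OE the member mean was 0.18, 0.19 and 0.32 on the log2 scale relative to the control mean, with controls at 0.02, 0.01 and -0.03, and in let-7 KO it was -0.16, -0.34 and -0.41 with WT at -0.29, -0.34 and -0.15. Of the other lists in LIN28B OE, 1 of 5 collecting duct markers (1197 to 1714 against 1726 to 2017 CPM) and 2 of 6 stromal markers (1133 to 1346 against 1307 to 1383 CPM) fell. So did 1 of 6 leukocyte markers (27.2 to 45.2 against 57.02 to 61.01 CPM) and 1 of 3 erythroid markers tested (43.3 to 80.9 against 62.9 to 87.4 CPM). No podocyte (286 to 327 against 295 to 431 CPM) or adrenal marker (4.43 to 5.32 against 2.91 to 3.43 CPM) was called. Values above 0 were found for 3 of 6 stromal, 2 of 6 leukocyte, 2 of 3 erythroid and 2 of 5 podocyte markers. For 2 stromal markers, Foxd1 and Meis1, every LIN28B OE kidney was above every control. Over all genes 4.08% were called lower and 3.25% higher in LIN28B OE. In let-7 KO 2 of 5 collecting duct markers fell and the other 3 had values above 0. Their list summed to 2148 to 2718 CPM against 1272 to 2706 CPM in WT. No marker of the loop, podocyte, stromal, endothelial, leukocyte, erythroid or adrenal lists was called there. Over all genes 1.1% were called higher and 1.63% lower in let-7 KO.

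**Figure D5:**
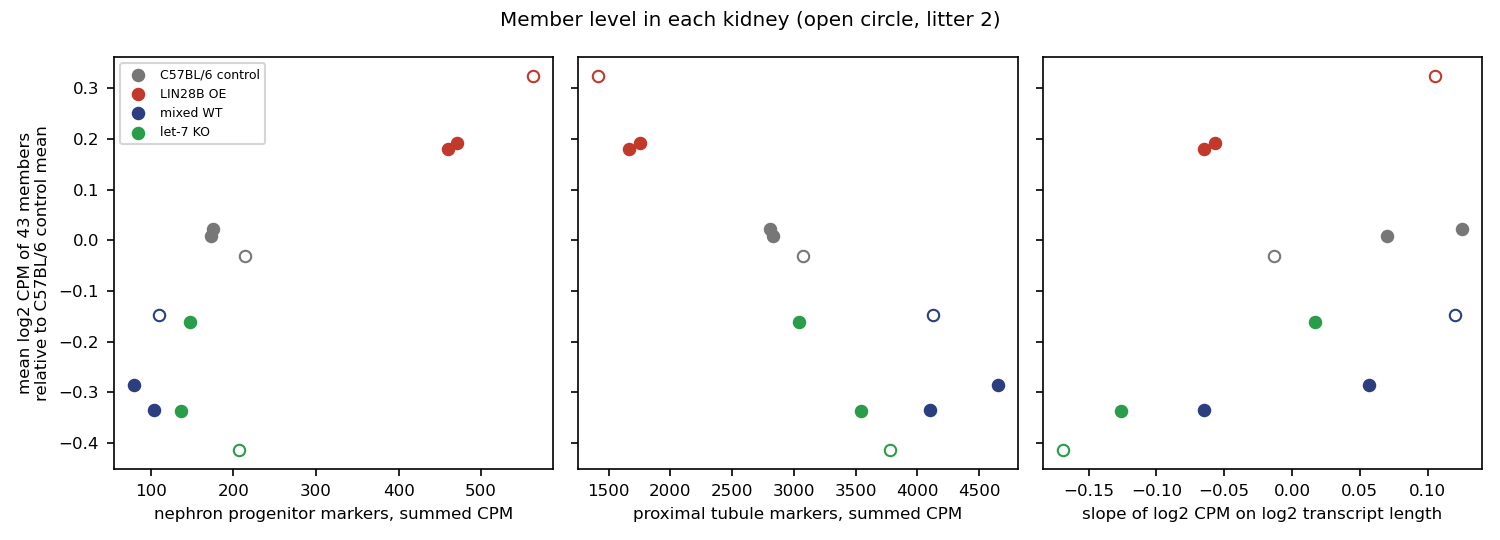
Mean log2 CPM of the 43 tested members in each kidney, relative to the C57BL/6 control mean (vertical axis), against the summed CPM of nephron progenitor markers (left) or proximal tubule markers (middle) and against the slope of log2 CPM on log2 transcript length (right). LIN28B OE is alone at the top left of the middle panel, and let-7 KO replicate 3, the lowest point, has the lowest length slope, -0.17.

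The control groups of the experiments differed from each other as well, and this describes the baselines, since strain, litters and library series cannot be told apart. Each of these groups also serves as the control of a model, so this comparison shares kidneys with both. In WT_mixed, the mixed-background WT, against C57BL/6 controls, 38 of 43 members were lower, with a median of -0.30 beside -0.01 over all 15850 genes. Mcm3, Top2a and Bub1b were called lower and Cdkn1a higher, where 1.97% of all genes were called lower and 2.82% higher. In this edgeR fit none passed an adjusted p of 0.05, which 1.19% of all genes did. An unadjusted p below 0.05 was found for 14 members, and the share of all genes there was not counted. DESeq2 called 11 at p below 0.01, and Mcm3, Cdkn1a, Ccnd1, Top2a and Bub1b, 5 in all, passed its adjusted threshold. In edgeR 3 passed it with the length slope, 3 without WT replicate 3 and 1 in litter 1 alone or with a strict filter on low counts. For DESeq2 and these further fits the share of all genes past the adjusted threshold was not counted. For 12 members all WT kidneys were below all C57BL/6 controls and for 3 above, beside 10.5% and 9.5% of all genes. Leaving out 1 kidney gave between 1 called member, without C57BL/6 control replicate 2, and 10, without WT replicate 3, and without control replicate 1 there were 2. Over all genes these 3 fits called 454, 1130 and 477, beside 759 with all 6 kidneys.

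Mcm3, a helicase subunit, was at 134, 146 and 143 CPM in C57BL/6 controls and 74.1, 83.4 and 104 CPM in WT (-0.69 ± 0.15, unadjusted p = 0.0012, adjusted p = 0.079, edgeR), and it was called with each of the 6 kidneys left out. Cdkn1a, whose call was lost without C57BL/6 control replicate 2, was at 152, 157 and 122 CPM in WT against 75.5 to 105 CPM in C57BL/6 controls (0.72 ± 0.17, unadjusted p = 0.0015, adjusted p = 0.085, edgeR). Top2a was at 107 to 166 CPM against 193 to 203 CPM (-0.58 ± 0.17, unadjusted p = 0.0066, adjusted p = 0.17, edgeR). Bub1b, a spindle checkpoint kinase, was at 33.1 to 51.2 CPM against 60.5 to 75.4 CPM (-0.68 ± 0.19, unadjusted p = 0.0059, adjusted p = 0.16, edgeR). Each of these 4 genes separated the control groups, but in the fits that left out 1 kidney Top2a was called only without WT replicate 3 and Bub1b only without WT replicate 2 or 3 or C57BL/6 control replicate 3. The progenitor marker sum was lower in WT, 79.4 to 110 CPM against 173 to 214 CPM, and the proximal tubule sum higher, 4100 to 4648 CPM against 2803 to 3072 CPM. The part of the markers in these differences was not tested. Short of the threshold, Ccnd1 at 0.67 (unadjusted p = 0.01002), Ccnd3 at 0.40 and Cdk6 at 0.61 had values above 0, so that 3 of 5 cyclin D group members stood against the trend of the rest. Of the 98 further pathway genes 8 fell and 0 rose, led by the mitosis genes Ncapd2 at -0.82 and Cenpf at -0.79 (adjusted p = 0.042 for Cenpf, edgeR). Over all genes 1.97% were called lower and 2.82% higher. The count of 8 was 2 without C57BL/6 control replicate 3 or WT replicate 1, 3 without control replicate 1 or 2, 19 without WT replicate 3, 16 with DESeq2 and 18 with the length slope. Cenpf was called with each of the 6 kidneys left out, and Ncapd2 in 3 of these fits, at -1.07 to -0.59, its call being lost without control replicate 1 or 3 or WT replicate 1.

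The effects of LIN28B OE and let-7 KO were compared in a single fit of all 12 kidneys as the difference between the log2 fold changes. Of 43 members 1 was called, Cdk2, at 0.92 ± 0.30 (95% interval 0.28 to 1.55, unadjusted p = 0.0082, adjusted p = 0.61, edgeR), where 0.512% of all 16598 genes were called with LIN28B OE higher and 1.04% lower. No member passed an adjusted p of 0.05, which 0.00602% of all genes did. In edgeR 4 had an unadjusted p below 0.05, namely Cdk2, Ccnb2, Top2a and Plk1, a threshold at which all genes were not counted. DESeq2 called 2 members at p below 0.01. Cdk2 was at 79.0, 68.9 and 55.9 CPM in C57BL/6 controls and 74.0, 75.3 and 107 CPM in LIN28B OE, so that only LIN28B OE replicate 3 was above the control range. It was 0.38 (unadjusted p = 0.22) in litter 1 alone and 0.90 (unadjusted p = 0.018) with litter as a block. The call was lost in 7 of the 12 fits that left out 1 kidney, namely C57BL/6 control replicates 2 and 3, LIN28B OE replicate 3, WT replicates 1 and 3 and let-7 KO replicates 2 and 3, with values of 0.73 to 0.93. Of the 98 further genes Cdca5, at 1.02 (adjusted p = 0.53), and Kif2c, a kinesin of the spindle, at 0.96 (adjusted p = 0.53), were called. Both calls were lost in litter 1 alone (0.95, unadjusted p = 0.032 for Cdca5, and 0.61, unadjusted p = 0.077 for Kif2c) and without WT replicate 3, that of Cdca5 also without C57BL/6 control replicate 1 and that of Kif2c without control replicate 2. The count of called further genes was 0 without WT replicate 3, and up to 4, without let-7 KO replicate 1. Over all genes these fits called 198 of 16993 and 461 of 17033.

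For the members that rose in LIN28B OE the difference from let-7 KO did not pass the threshold with all 12 kidneys, although Birc5 was called in litter 1 alone (0.75, unadjusted p = 0.0088) and Top2a without WT replicate 2 (0.69, unadjusted p = 0.0093). It was 0.20 for Ccnd2 (95% interval -0.34 to 0.73), 0.25 for Cdk4 (-0.11 to 0.61), 0.07 for Pcna (-0.31 to 0.46), 0.32 for Birc5 (-0.24 to 0.88) and 0.17 for Tyms (-0.37 to 0.72). It was 0.43 for Mcm7 (-0.02 to 0.87), 0.38 for Mcm5 (-0.17 to 0.93), 0.55 for Top2a (0.04 to 1.06, unadjusted p = 0.035) and 0.57 for Ccne1 (-0.46 to 1.605). Except that of Top2a, these intervals hold values on both sides of 0, so they do not show that the models acted alike on these genes.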

How the data were processed

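RNA from 12 single mouse kidneys was measured as 1 library each (SMARTer Ultra Low kit, Illumina HiSeq). Per the labels, the authors deposited raw read counts per gene symbol, and the processing notes name mm10, cutadapt, TopHat2 2.0.9, Bowtie2, SAMtools 0.1.19 and HTSeq. Strand-specific counting is not given in the sources used here, so reads of overlapping genes and near-identical copies may be split.

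The members and gene lists were chosen with earlier results of these data known. Counts were fitted per comparison with edgeR 4.0.16 (R 4.3.3, TMM, filterByExpr, quasi-likelihood test), without a covariate, and adjusted over all genes tested. Standard errors are the log2 fold change over the square root of F. CPM use TMM factors of all 12 kidneys. By rule, the text names each called member, the highest and lowest of each role group in both models, 12 members fixed by name, and the 2 largest called genes of each pathway list. Alternatives were RLE and upper-quartile scaling, DESeq2 1.42.0, other filters, a litter block, litter 1 alone, the length slope, 1 fit of all kidneys and each kidney left out.

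Per the labels the replicates are separate kidneys that share litters, and whether kidneys shared an animal is not given in the sources used here, so p-values measure the spread between these kidneys. The labels number the litters, so litter pairs mutants with littermates. Deviations from group means correlated at -0.04 within and 0.05 between litters in LIN28B OE, and at -0.01 and 0.01 in let-7 KO. For the control groups of different strains the number pairs nothing. On simulated counts, 84% (LIN28B OE, 15416 genes) and 74% (let-7 KO, 15085 genes) of genes changed by 1 on the log2 scale were called. For the difference between the models it was 47% (16236 genes). Smaller changes, such as the 0.44 to 0.79 of the members called in LIN28B OE, were not simulated, so the power for them is not known. Transcript lengths and 3′ UTRs came from GENCODE M21, promoters and miRNAs from RefSeq. Birc5's longest 3′ UTR belongs to a transcript that is not its principal one. All 44 symbols matched GENCODE and 35 a promoter. No pair of kidneys in a group agreed within counting noise.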

Additional observations from a re-analysis of the deposited data

Results flagged for a closer look

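The difference between the effects of the models was called for Cdk2, at 0.92 on the log2 scale (unadjusted p = 0.0082, adjusted p = 0.61, edgeR). The call was lost with litter as a block (0.90, unadjusted p = 0.018), in litter 1 alone (0.38, unadjusted p = 0.22) and in 7 of the 12 fits that left out 1 kidney. Ccnb2, cyclin B2, was called in neither model (0.30, unadjusted p = 0.042, in LIN28B OE and -0.14, unadjusted p = 0.39, in let-7 KO), but the kidneys of the models lay on opposite sides of their controls. All LIN28B OE kidneys (144, 159 and 166 CPM) were above all controls (128, 126 and 129 CPM), and all let-7 KO kidneys (88.2, 89.9 and 96.7 CPM) were below all WT kidneys (98.2, 102 and 102 CPM). The log2 difference was 0.42 ± 0.18 (unadjusted p = 0.031, adjusted p = 0.75, edgeR). Over all genes, 10.3% were without overlap and higher in LIN28B OE and 13.6% lower, and in let-7 KO 7.81% and 8.98%. The share of all genes apart in opposite directions in the models was not counted. Ccnb2 alone is thus no sign of a trait of the members. With 3 kidneys a group, single outlying kidneys were not tested.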

How the results depend on the processing

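Of 43 members, 9 were called in LIN28B OE, and 1 with an adjusted p below 0.05, 18 with the length slope, 6 with litter as a block and 1 to 10 with a kidney left out. In let-7 KO the count of 0 became 1 with DESeq2 and 1 in the single fit of all 12 kidneys (Ccnd2 both times), was 0 with the block, and was 0 to 2 with a kidney left out. Between the control groups, 4 became 0 with an adjusted p, 8 with upper-quartile scaling, 11 with DESeq2, 7 without a filter, 8 with a strict filter, 10 in litter 1, 11 with the length slope and 1 to 10 with a kidney left out, and was 5 with the block, where the litter number pairs nothing. The difference between the models, 1, became 0 with an adjusted p, 2 with DESeq2, 0 with the block, 2 with the length slope and 0 to 3 with a kidney left out. Calls over all genes moved too, from 515 to 2795 in LIN28B OE and from 137 to 1296 in let-7 KO. They ran from 454 to 1152 between the control groups and from 165 to 461 for the difference. The cause of these changes was not tested.

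Requiring the 8-base match left 1 member for let-7, and the last 100 bases 4 for E2F and 10 for CHR. Signs turned, in log2 fold change, for members that were not called. In litter 1, LIN28B OE, Bub1b was at -0.18, Ccnb1 at -0.088, Ccnd1 at 0.23, Cdkn1a at 0.045, Mcm3 at -0.013 and Rrm1 at -0.048, and in let-7 KO Cdk1 was at -0.079, Cdk6 at 0.032, Cdkn1b at -0.34, Mcm2 at 0.03, Mcm4 at 0.048 and Top2a at 0.25. With the length slope, Cdkn1b was at -0.51 and Foxm1 at 0.13 in LIN28B OE, and in let-7 KO Bub1 was at 0.067, Cdc25c at -0.14, Cdk1 at -0.086, Cdkn1b at -0.35, Mcm2 at 0.015, Mcm4 at 0.11, Rrm1 at 0.18 and Top2a at 0.25. With a kidney left out, LIN28B OE gave Bub1b -0.12 to 0.31, Ccnd1 -0.44 to 0.011, Cdkn1b -0.17 to 0.55, E2f2 -0.57 to 0.055, Foxm1 -0.40 to 0.21, Mcm3 -0.057 to 0.41 and Rrm1 -0.049 to 0.30, and let-7 KO gave Ccnd1 -0.057 to 0.16, Cdc25c -0.080 to 0.36, Cdk1 -0.049 to 0.12, Cdk6 -0.28 to 0.19, Cdkn1b -0.16 to 0.82, Mki67 -0.083 to 0.18 and Top2a -0.18 to 0.13. Over the named genes, 537 values under the other settings kept sign and side of the threshold, 21 lost the call, 10 gained it and 22 turned, and with a kidney left out these counts were 321, 72, 4 and 23. Depth did not limit the tested members, whose lowest level, 5.01 CPM, lay far above the floor of 3 counts.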
